A study of Drosophila melanogaster with 12 samples.

Results

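The ecdysone receptor and response genes of Drosophila melanogaster were followed in late embryos that carried mutant forms of elav. They are 10 genes, chosen by gene number from a counts table of 17561 genes. No measured value entered the rule, but earlier results of these data were known when the genes were chosen. They comprise the receptor genes EcR and usp, the early genes Eip74EF, Eip75B and br, the early-late genes Hr3, Hr4 and Hr39, the competence factor gene ftz-f1 and the epithelial gene ImpE1. The gene number of 9 of them was found in the table directly, and Hr4 was found under CG43934, the number that RefSeq gives in place of the older one. All 10 passed the filter on low counts.

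Poly(A) RNA of embryos aged 20 to 24 h was sequenced in 12 libraries, 3 in each of 4 groups. The groups were named elav[null], elav[null] fne[null] (alleles of both genes), elav[WDd] and WT. elav encodes a neuronal RNA-binding protein that steers alternative splicing and the choice of poly(A) sites, and fne encodes a close relative. The labels describe neither the [null] nor the [WDd] allele further, and nothing in them tells whether replicates stem from separate collections. Each p-value therefore measures the spread between libraries, which may be technical. The WT embryos were not free of mutant alleles: per the labels they carried elav[e5] over the balancer chromosome FM7, and per the file headers an elav null allele over FM7. The elav mutant embryos were recognised by the lack of the fluorescent protein carried on FM7. WT alone thus carried FM7, and over WT its part cannot be told apart from that of the mutant alleles. The sex of the embryos was not examined, and over WT any difference in sex cannot be told apart from the mutant alleles either. The genes usp, br and Hr4 lie on the X chromosome. The labels give the window of collection and no finer stage.

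20-hydroxyecdysone, the steroid hormone of insects, acts through a receptor made of the EcR and Usp proteins. Bound receptor switches on early genes, whose products switch on early-late genes and, as the hormone falls, the competence factor gene ftz-f1, so that the genes come on in a set order. A pulse of the hormone in mid-embryogenesis precedes deposition of the larval cuticle, and the set order is why these genes were read here as a check on embryo age. No staged series of embryos was used here, and no library is given an age.

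elav stood at 5.01 ± 1.16 CPM in elav[null], 5.55 ± 0.566 in elav[null] fne[null], 163.8 ± 24.2 in elav[WDd] and 112.9 ± 46.1 in WT (SD, n = 3 each). The elav[null] and elav[null] fne[null] libraries, low in elav, are called the libraries without elav. CPM are read counts scaled to library size with TMM factors. fne averaged 23.3 ± 6.27 CPM in elav[null] fne[null], but the library labelled elav[null] replicate 3 had 36.2 CPM, against up to 242.7 CPM in the other elav[null] libraries. Of the 10 ecdysone genes, 7 stood nearer in that library to the elav[null] fne[null] mean than to elav[null] replicates 1 and 2, as did 56.6% of all genes tested. Library totals ran from 22491041 to 97043662 counts. Thinned to 2e+07 counts each, replicates 1 and 3 of elav[null] and replicate 2 of elav[null] fne[null] detected 10526 to 11865 genes, and the other 9 libraries 13257 to 15580. In those 3 libraries 116 to 168 genes had 1 to 10 counts, against 978 to 2828 genes in the other 9, so low levels are poorly represented in them. In RNA of bulk embryos, fewer cells of a type and less RNA per cell cannot be told apart.

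Among the 10 genes, the early gene Eip74EF carried the clearest difference between the groups. It was lower in elav[null] and in elav[null] fne[null] than in WT, and higher in elav[WDd] than in either of them. Hr39 was the only other gene called, higher in elav[WDd] than in elav[null], in a call that held in 10 of 20 alternatives. ftz-f1, Hr3, EcR and Hr4 were called in no comparison, though each was in some alternatives. Eip75B, br, usp and ImpE1 were called in no comparison and in no alternative. Every one of the 6 comparisons had at most 2 of the 10 genes called. None was called in elav[WDd] over WT or in elav[null] fne[null] over elav[null], where 0.2% and 0.228% of all genes were. In the other comparisons 16.8% to 21.4% of all genes were called.

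**Figure D1:**
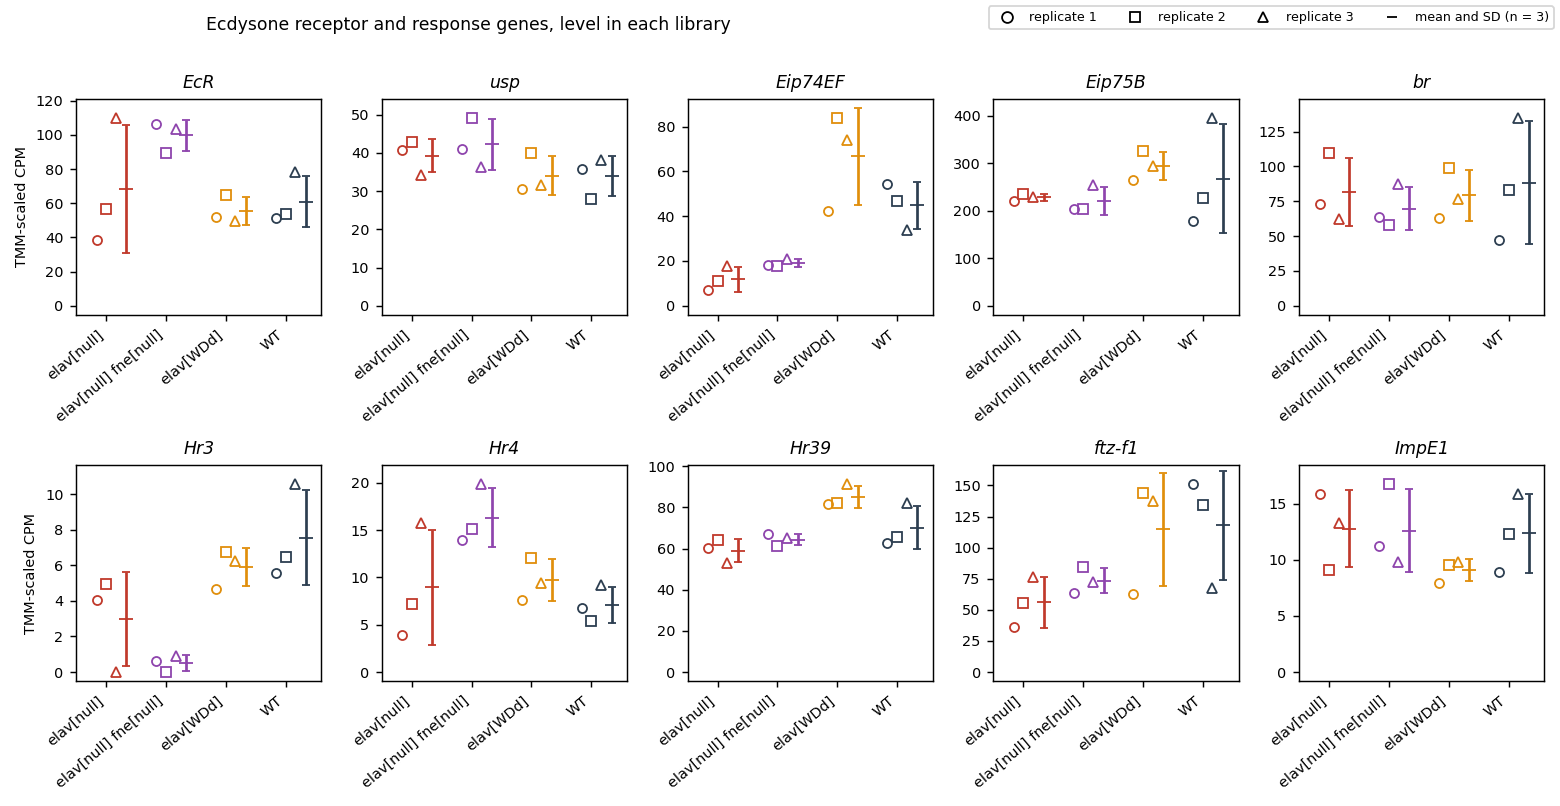
TMM-scaled CPM of the 10 genes (vertical axes, each from about 0) in the 3 libraries of each group, with replicates 1, 2 and 3 as circle, square and triangle, and the mean with its SD beside them. Eip74EF reaches at most 21.0 CPM in the 6 libraries without elav and at least 33.6 CPM in all others, and the triangle of elav[null] stands apart in EcR, Hr3 and Hr4.

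The receptor genes came first in the order of the pathway. EcR (CG1765, dm6 chromosome 2R, 6087873 to 6169087, minus strand) encodes the hormone-binding nuclear receptor. It stood at 38.3, 56.6 and 110.1 CPM in elav[null] replicates 1 to 3, at 106.3, 89.3 and 103.7 CPM in elav[null] fne[null], at 51.9, 64.9 and 49.4 CPM in elav[WDd], and at 51.5, 53.4 and 78.0 CPM in WT. All 3 elav[null] fne[null] libraries and the library labelled elav[null] replicate 3 were above the other 8. The difference of elav[null] fne[null] over WT, a log2 fold change of 0.71 ± 0.31 SE, did not pass the test (edgeR quasi-likelihood test, Benjamini-Hochberg adjusted p = 0.125). In elav[null] over WT it was 0.16 ± 0.31 (edgeR adjusted p = 0.787). EcR was called higher in elav[null] fne[null] over WT in 5 of 20 alternatives, which were DESeq2 (adjusted p = 0.0376), the fit of only the 6 libraries compared (edgeR adjusted p = 0.0295) and the fits without elav[null] replicate 1 (0.0487), with the 3 libraries of fewest detected genes left out (0.0154) or without the library labelled elav[null] replicate 3 (0.73 ± 0.20, 0.0165). This last of these also called it over elav[null] (1.08 ± 0.23, edgeR adjusted p = 0.0131). In elav[WDd] over elav[null] fne[null] EcR gave −0.85 ± 0.31 without overlap and was not called (edgeR adjusted p = 0.0673), but it was in 6 of 20 alternatives, with edgeR adjusted p down to 0.00199.

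usp (CG4380, chromosome X, 2038798 to 2042311, minus strand) encodes the obligate partner of EcR. Its level was even: it averaged 39.3 ± 4.42 CPM in elav[null], 42.2 ± 6.57 in elav[null] fne[null], 34.0 ± 5.10 in elav[WDd] and 33.9 ± 5.25 in WT (SD, n = 3 each). The highest of the 12 libraries was 1.76 times the lowest, and the groups overlapped in all 6 comparisons. The muscle gene Actn overlaps 8.72% of the exon length of usp, and CG4313 on the opposite strand shares part of that stretch. Actn itself ranged more widely, at 286.5 ± 182 CPM in elav[null], 117.1 ± 13.7 in elav[null] fne[null], 1240 ± 67.9 in elav[WDd] and 1177 ± 99.1 in WT, while usp lay in 1 narrow range in all groups.

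The early genes are direct targets of the receptor. Eip74EF (CG32180, chromosome 3L, 17558672 to 17619325, minus strand) encodes an ETS-domain transcription factor. It stood at 6.87, 11 and 17.7 CPM in elav[null] and at 18.3, 17.9 and 21.0 CPM in elav[null] fne[null]. It reached 42.5, 84.0 and 73.8 CPM in elav[WDd] and 54.3, 46.6 and 33.6 CPM in WT. All 6 libraries without elav were thus below all 6 of the other groups, and the elav[null] libraries were all below those of elav[null] fne[null]. The elav[WDd] and WT ranges overlapped.

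Eip74EF fell in elav[null] over WT by 1.93 ± 0.33 SE on the log2 scale (edgeR adjusted p = 0.00112), and was lower in 3 of 3 libraries. It was the only gene of the 10 that was called, where 17.7% of all 14031 genes tested were called in that comparison and 11.7% were called lower. In elav[null] fne[null] over WT it fell by 1.24 ± 0.32 (edgeR adjusted p = 0.0141), again as the only call of the 10, against 21.4% of all genes called and 14.7% called lower. That call was lost without WT replicate 1, elav[null] fne[null] replicate 1 or elav[null] fne[null] replicate 2 (log2 fold changes −1.05, −1.19 and −1.17, edgeR adjusted p = 0.0566, 0.0595 and 0.062). The call in elav[null] held in all 20 alternatives run, including the fit without the library labelled elav[null] replicate 3, with log2 fold changes between −2.33 and −1.64. The log2 fold change of elav[WDd] over WT was 0.57 ± 0.32 and was not called (edgeR adjusted p = 1).

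Between the mutants, Eip74EF was higher in elav[WDd] than in elav[null] by a log2 fold change of 2.50 ± 0.34 (edgeR adjusted p = 0.000206) and than in elav[null] fne[null] by 1.81 ± 0.33 (0.00138). Both calls held in all 20 alternatives. The difference of elav[null] fne[null] over elav[null] was 0.70 ± 0.32 and was not called (edgeR adjusted p = 0.384). With the library labelled elav[null] replicate 3 left out it was called, at 1.11 ± 0.30 (edgeR adjusted p = 0.0445). The order of the group means was therefore elav[null], elav[null] fne[null], WT and elav[WDd], in which neither the lowest pair nor the highest pair passed the test.

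Eip75B (CG8127, chromosome 3L, 17950953 to 18064696, minus strand) encodes a haem-binding nuclear receptor that represses Hr3 activity. It averaged 228.1 ± 7.19 CPM in elav[null], 220.5 ± 28.8 in elav[null] fne[null], 294.7 ± 29.8 in elav[WDd] and 267.7 ± 114 in WT (SD, n = 3 each). The WT libraries spanned those of all other groups, at 179.3, 227.7 and 396.2 CPM. br (CG11491, chromosome X, 1575132 to 1664869, plus strand) encodes the Broad zinc-finger factors of metamorphosis. It likewise varied most within WT, at 47.5, 82.8 and 135.1 CPM, and averaged 81.7 ± 24.6 CPM in elav[null], 69.7 ± 15.3 in elav[null] fne[null] and 79.3 ± 18.3 in elav[WDd]. The lowest edgeR adjusted p of these genes over the 6 comparisons was 0.257 for Eip75B and 0.553 for br. Without WT replicate 3 the log2 fold changes over WT turned positive, at 0.17 for Eip75B and 0.34 for br in elav[null] and at 0.13 and 0.12 in elav[null] fne[null].

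The early-late genes need both the receptor and the products of early genes. Hr3 (CG33183, chromosome 2R, 10203995 to 10237348, minus strand) encodes a nuclear receptor that activates ftz-f1. It stood at 4.03, 4.98 and 0 CPM in elav[null], at 0.616, 0 and 0.910 CPM in elav[null] fne[null], at 4.69, 6.75 and 6.25 CPM in elav[WDd], and at 5.59, 6.47 and 10.6 CPM in WT. The elav[null] fne[null] libraries held 39, 0 and 51 counts. The libraries with 0 counts were among the 3 that held few genes of 1 to 10 counts. At the level of elav[null] fne[null] replicate 3, elav[null] fne[null] replicate 2 would have had 78.1 counts and the library labelled elav[null] replicate 3 would have had 19.6. At the lower level of elav[null] fne[null] replicate 1, these libraries would have had 52.8 and 13.3 counts. A count of 0 there allows up to 3 counts, or 0.0350 and 0.139 CPM, which covers counting error only. Only a small share of the genes with any counts lay below 49 counts (0.571 CPM) in elav[null] fne[null] replicate 2. The 52.8 counts lie close to that bound. In the library labelled elav[null] replicate 3 that bound was 26 counts (1.21 CPM). The 19.6 counts lie below it, so the 0 there cannot tell absence from the level of elav[null] fne[null] replicate 3.

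All elav[null] fne[null] libraries were below all elav[WDd] and WT libraries in Hr3, and elav[null] was below WT without overlap. The fitted log2 fold changes had large errors and depend on how 0 counts are treated. elav[null] fne[null] over WT gave −3.90 ± 1.35 SE and did not pass (edgeR adjusted p = 0.0552). elav[WDd] over elav[null] fne[null] gave 3.55 ± 1.33 (edgeR adjusted p = 0.0769), and elav[null] over WT gave −1.32 ± 1.21 (0.526). With the 3 libraries of fewest detected genes left out, Hr3 was called lower in elav[null] fne[null] over WT (−3.28 ± 0.40, edgeR adjusted p = 0.000204). It was then also lower in elav[null] fne[null] than in elav[null], which is left with replicate 2 alone and assumed to vary like the other groups (−2.69 ± 0.45, edgeR adjusted p = 0.0103). Without the library labelled elav[null] replicate 3 it was called in elav[null] fne[null] over WT as well (−3.89 ± 0.91, edgeR adjusted p = 0.00626), and likewise in the fit of only the 6 libraries compared (−3.88 ± 1.13, 0.0346). Of the exon length of Hr3, 82.7% overlaps with 3 other genes, namely CG12912 and CG46321, both at 0 counts in all 12 libraries, and lncRNA:CR46322, which shares 228 bases. How reads in shared exons were counted is not stated, so the level of Hr3 is uncertain.

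Hr4 (CG43934, chromosome X, 1941940 to 2007956, plus strand) encodes a nuclear receptor that represses early genes as the hormone response proceeds. It stood at 3.92, 7.24 and 15.7 CPM in elav[null], at 14.0, 15.1 and 19.9 CPM in elav[null] fne[null], at 7.60, 12 and 9.46 CPM in elav[WDd], and at 6.81, 5.36 and 9.16 CPM in WT. As with EcR, the elav[null] fne[null] libraries were all above elav[WDd] and WT, and the library labelled elav[null] replicate 3 lay among them. The log2 fold change of elav[null] fne[null] over WT was 1.20 ± 0.42 and did not pass (edgeR adjusted p = 0.0595). It passed in 8 of 20 alternatives, among them the fit without the library labelled elav[null] replicate 3 (1.22 ± 0.30, edgeR adjusted p = 0.00803) and the fit without elav[null] replicate 1 (1.22 ± 0.33, 0.0189). Over elav[null] it was 0.88 ± 0.42 (edgeR adjusted p = 0.403). It was 1.56 ± 0.35 with the library labelled elav[null] replicate 3 left out (edgeR adjusted p = 0.0157).

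Hr39 (CG8676, chromosome 2L, 21237250 to 21259675, plus strand) encodes a nuclear receptor close in kind to Ftz-f1. It stood at 60.1, 64.2 and 52.8 CPM in elav[null], at 66.9, 61.3 and 65 CPM in elav[null] fne[null], at 81.8, 82.1 and 91.5 CPM in elav[WDd], and at 62.7, 65.7 and 82.1 CPM in WT. Every elav[WDd] library was above every library of the groups without elav. It was higher in elav[WDd] over elav[null] by a log2 fold change of 0.53 ± 0.15 SE (edgeR adjusted p = 0.0286), in 3 of 3 libraries. With Eip74EF it made 2 calls among the 10 genes, where 16.8% of all genes were called and 11% were called higher. The call of Hr39 held in 10 of 20 alternatives. It was lost without elav[null] replicate 1, the library labelled elav[null] replicate 3, elav[null] fne[null] replicate 1, elav[WDd] replicate 1 or elav[WDd] replicate 3 (edgeR adjusted p = 0.0504 to 0.136). RLE factors, no low-count filter, the fit of only the 6 libraries compared, a fold of at least 2 and leaving out the 3 libraries of fewest detected genes also ended it (edgeR adjusted p of up to 0.257). Over elav[null] fne[null] the difference was 0.40 ± 0.15 and was not called (edgeR adjusted p = 0.0771). Eip74EF was the only call of that comparison among the 10, against 20.9% of all genes called and 14.3% called higher.

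ftz-f1 (CG4059, chromosome 3L, 18750607 to 18801309, minus strand) encodes the nuclear receptor that gives tissues the competence to answer the next hormone pulse, and embryos need its late form for cuticle differentiation. It stood at 35.8, 55.5 and 76.6 CPM in elav[null], at 63.6, 84.2 and 72.7 CPM in elav[null] fne[null], at 62.4, 144.2 and 137.4 CPM in elav[WDd], and at 151.4, 134.3 and 67.9 CPM in WT. In elav[WDd] and in WT a single library was about as low as the libraries without elav, so that the groups overlapped in every comparison. elav[null] over WT gave a log2 fold change of −1.08 ± 0.36 that narrowly missed the threshold (edgeR adjusted p = 0.0537). It was called in 4 of 20 alternatives, which were DESeq2 and the fits without WT replicate 3, the library labelled elav[null] replicate 3 or elav[WDd] replicate 1. elav[WDd] over elav[null] gave 1.04 ± 0.36 (edgeR adjusted p = 0.0647), and it was called under the same 4. The low-expressed lncRNA:CR45939, at most 1.14 CPM, overlaps 29.4% of the exon length of ftz-f1.

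ImpE1 (CG32356, chromosome 3L, 8372405 to 8391171, plus strand) is an ecdysone-inducible gene of imaginal disc epithelium. It averaged 12.8 ± 3.43 CPM in elav[null], 12.6 ± 3.69 in elav[null] fne[null], 9.10 ± 1.02 in elav[WDd] and 12.4 ± 3.51 in WT (SD, n = 3 each). The lowest edgeR adjusted p over the 6 comparisons was 0.307.

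**Figure D2:**
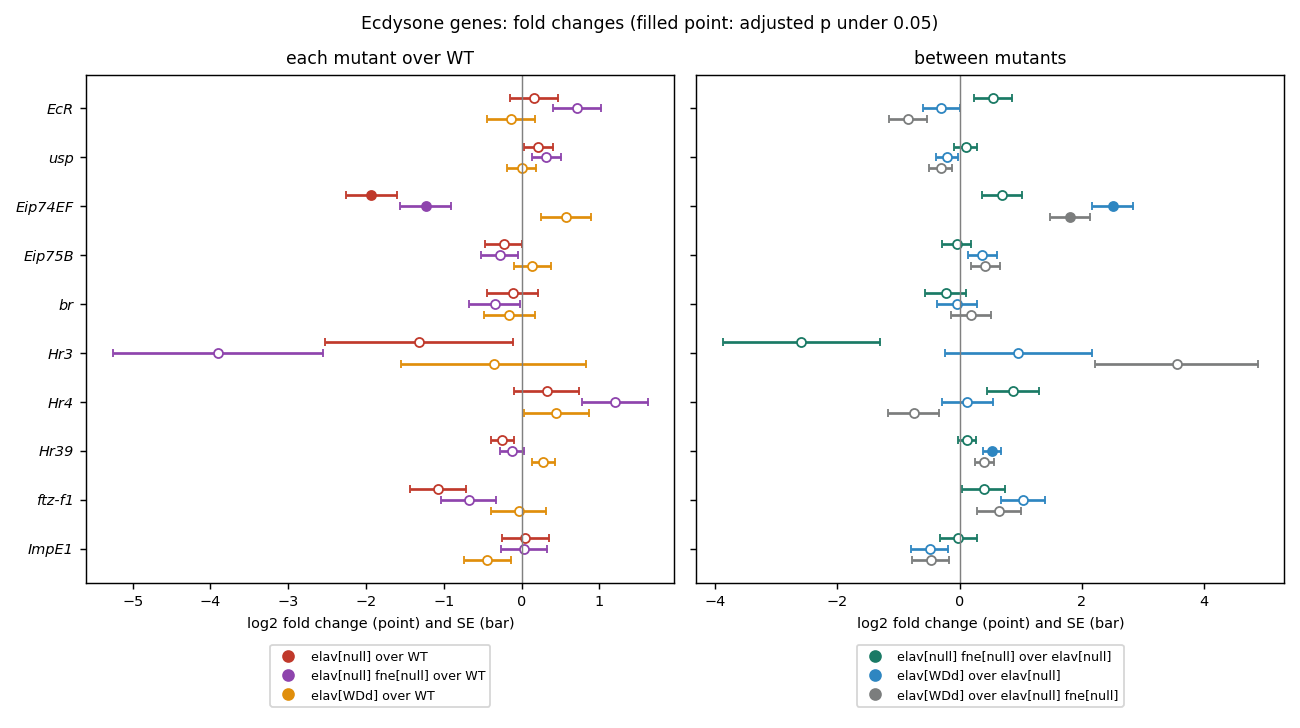
Log2 fold changes (points) with their SE (bars) of the 10 genes from the edgeR fit, each mutant over WT on the left and between mutants on the right. Filled points passed an adjusted p of 0.05: Eip74EF in 4 comparisons and Hr39 in elav[WDd] over elav[null], while the bars of Hr3 are the widest.

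The 10 genes were also counted together. Their median log2 fold change over WT was −0.173 in elav[null], −0.202 in elav[null] fne[null] and −0.018 in elav[WDd], beside −0.11, −0.031 and −0.028 over all genes tested. For elav[WDd] over WT edgeR called 0 of 10, against 0.2% of all genes, 0 had an unadjusted p under 0.05 and DESeq2 called 0. In elav[null] fne[null] over elav[null] edgeR called 0 of 10, against 0.228% of all genes, 0 had an unadjusted p under 0.05 and DESeq2 called 0. The medians in elav[WDd] over elav[null] and over elav[null] fne[null] were 0.247 and 0.295, beside 0.068 and 0.011 over all genes, and in elav[null] fne[null] over elav[null] 0.114 beside 0.014. The comparisons over WT share the WT libraries.

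Ranges were compared as well. Over WT, 2 of the 10 genes in elav[null] (Eip74EF and Hr3, lower) and 4 in elav[null] fne[null] (EcR and Hr4 higher, Eip74EF and Hr3 lower) had libraries that did not overlap with WT, where 31.2% and 42.4% of all genes did not. In elav[WDd] over WT all 10 genes overlapped, where 14.3% of all genes did not. Over elav[null] fne[null], 7 genes of elav[WDd] did not overlap, Eip74EF, Eip75B, Hr3 and Hr39 being higher and EcR, Hr4 and ImpE1 lower, where 48.7% of all genes did not. Over elav[null], 3 did not overlap, Eip74EF, Eip75B and Hr39, all higher, where 35.9% of all genes did not. Between elav[null] fne[null] and elav[null] it was Eip74EF alone, higher in elav[null] fne[null], where 15.2% of all genes did not overlap.

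Eip74EF and ftz-f1 were set against each other within each library, a choice made after their values were seen. The ratio of Eip74EF to ftz-f1 counts was 0.192, 0.198 and 0.232 in elav[null], 0.288, 0.212 and 0.289 in elav[null] fne[null], 0.681, 0.582 and 0.537 in elav[WDd], and 0.359, 0.347 and 0.496 in WT. Being a ratio of counts in 1 library, it does not depend on the scaling between libraries. Every elav[WDd] library was above every WT library, and every WT library above every library without elav. The mean log2 ratio differed from WT by −0.94 in elav[null], −0.60 in elav[null] fne[null] and 0.60 in elav[WDd], with a two-sided exact permutation p of 0.1 each, the smallest that 3 against 3 libraries allow. WT replicate 3 and elav[WDd] replicate 1, which had the lowest ftz-f1 of their groups, also had the lowest Eip74EF, whereas elav[null] fne[null] replicate 2 had the highest ftz-f1 and the lowest Eip74EF of its group.

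**Figure D3:**
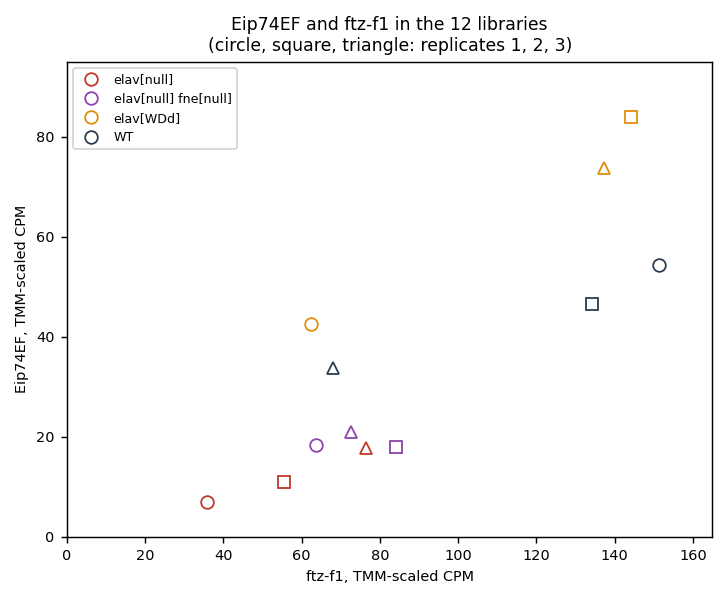
Eip74EF against ftz-f1 in each of the 12 libraries, both in TMM-scaled CPM, with groups by colour and replicates 1, 2 and 3 as circle, square and triangle. WT and elav[WDd] each have 2 libraries at the upper right and 1 near the level of ftz-f1 in the libraries without elav, and at like ftz-f1 the elav[WDd] and WT libraries have more Eip74EF.

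Levels of the genes relative to each other were compared per kilobase of merged exons. In WT they ran from 19.9 ± 8.46 CPM per kb for Eip75B through 14.1 ± 2.10 for Hr39, 13.7 ± 5.14 for ftz-f1, 11.2 ± 1.73 for usp, 6.14 ± 1.49 for EcR, 4.81 ± 1.12 for Eip74EF, 4.38 ± 2.18 for br and 1.98 ± 0.560 for ImpE1 to 0.722 ± 0.255 for Hr3 and 0.512 ± 0.138 for Hr4 (SD, n = 3). Neighbours in this order lay within their SDs of each other, except for usp above EcR, br above ImpE1 and ImpE1 above Hr3. Across the 12 libraries the highest level was 12.2 times the lowest in Eip74EF, 5.08 times in Hr4, 4.22 times in ftz-f1 and 2.88 times in EcR. Within WT alone it was 2.85 times in br, 2.23 times in ftz-f1 and 2.21 times in Eip75B.

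The profiles most like those of Hr3, Eip74EF and Hr4, the 3 genes whose group means spread most, were looked up among 8415 genes. Likeness was the mean absolute difference in centred log2 CPM over the 12 libraries. For Hr3 these were hec (0.388), a G protein-coupled receptor gene, FoxP (0.463), a forkhead factor gene, and Ilp2 (0.553), an insulin-like peptide gene. FoxP averaged 9.24 ± 8.46 CPM in elav[null], 0.491 ± 0.425 in elav[null] fne[null], 10.6 ± 0.598 in elav[WDd] and 13 ± 3.31 in WT. For Eip74EF they were CG16786 (0.321), bin (0.332), a forkhead factor gene of visceral mesoderm, and GstE5 (0.339), a glutathione transferase gene. bin averaged 3.09 ± 0.388 CPM in elav[null], 4.89 ± 0.309 in elav[null] fne[null], 10.9 ± 0.590 in elav[WDd] and 11.3 ± 0.645 in WT. For Hr4 they were f (0.207), an actin bundling gene of bristles, lola (0.243), a BTB zinc-finger gene of axon growth, and N (0.254), the Notch receptor gene.

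Genes around the pathway were read in 6 lists, each described by its counts and median over WT. Among all genes tested, 5.99% were called higher and 11.7% lower in elav[null] over WT, and 6.68% higher and 14.7% lower in elav[null] fne[null] over WT, and the lists are read beside these shares. Of 12 receptor cofactors and other nuclear receptors, 1 was higher and 1 lower in elav[null], and likewise in elav[null] fne[null], while in elav[WDd] 1 was lower. At 8.33% of the list each way, the counts in the null groups are near or below the shares of all genes. The gene that was lower was Hr38 each time, which encodes a nuclear receptor that can pair with Usp and is also induced by neuronal activity. It stood at 8.63, 6.56 and 6.31 CPM in elav[null], at 3.57, 11.5 and 6.01 CPM in elav[null] fne[null], at 4.43, 6.61 and 6.39 CPM in elav[WDd], and at 17.0, 45.8 and 97.3 CPM in WT. All 9 mutant libraries were below all WT libraries, which themselves spread widely. The log2 fold changes were −2.89 ± 0.55 in elav[null], −2.92 ± 0.55 in elav[null] fne[null] and −3.20 ± 0.55 in elav[WDd] (edgeR adjusted p = 0.00219, 0.00159 and 0.033). Without WT replicate 3 they were −2.12, −2.14 and −2.44.

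The call of Hr38 held in all 20 alternatives in elav[null] and in elav[null] fne[null]. In elav[WDd] it held in 10 of 20 and was lost, among other settings, under robust dispersion, in the fit of only the 6 libraries compared and without WT replicate 2, WT replicate 3, elav[null] replicate 2, elav[null] fne[null] replicate 3 or any elav[WDd] library (edgeR adjusted p of up to 0.195 over all alternatives). The gene called higher was Hnf4, a nuclear receptor gene of gut and fat metabolism, at 1.02 ± 0.16 in elav[null] and 0.82 ± 0.16 in elav[null] fne[null] (edgeR adjusted p = 0.000566 and 0.00209). Counts that were higher in this list changed to 2 in elav[null] and 3 in elav[null] fne[null] without WT replicate 3, and to 2 in elav[null] fne[null] without the library labelled elav[null] replicate 3. List medians were 0.084 in elav[null], 0.276 in elav[null] fne[null] and 0.118 in elav[WDd].

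Of 18 other ecdysone-inducible genes, 3 fell and none was called higher in edgeR in elav[null] or in elav[null] fne[null] (0 higher at an unadjusted p under 0.05 and 0 in DESeq2 for both). That is 16.7% of the list called lower in each group, near the share of all genes. The same 3 genes were called in both. MsrA, first named Eip71CD and encoding a methionine sulfoxide reductase, fell in both, with log2 fold changes of −2.02 ± 0.35 in elav[null] and −1.53 ± 0.34 in elav[null] fne[null] (edgeR adjusted p = 0.00111 and 0.00523). Edg78E, a cuticle protein gene that ecdysone controls, fell likewise (−3.94 ± 0.82 and −3.54 ± 0.80, edgeR adjusted p = 0.00422 and 0.00572). Ldh, first named ImpL3 and encoding lactate dehydrogenase, fell also (−1.25 ± 0.28 and −2.45 ± 0.29, edgeR adjusted p = 0.0073 and 6.47e-05). Ldh stood at 322.2, 274.2 and 113.3 CPM in elav[null], 102.0, 102.7 and 102.5 CPM in elav[null] fne[null], 436.5, 372.9 and 452.3 CPM in elav[WDd], and 537.7, 594.7 and 550.8 CPM in WT. The library labelled elav[null] replicate 3 again lay near elav[null] fne[null].

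The elav[null] count of that list was 5 without elav[null] replicate 2 or without elav[null] fne[null] replicate 2, and 1 in the fit of only the 6 libraries compared. In elav[WDd] edgeR called 0 of the 18, although 4 were lower at an unadjusted p under 0.05, and DESeq2 called 0. The medians of the list were −0.404 in elav[null], −0.279 in elav[null] fne[null] and −0.449 in elav[WDd].

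Of 12 genes of ecdysteroid synthesis, import and removal, Oatp74D, which encodes the importer of ecdysone into cells, was higher in elav[null] and in elav[null] fne[null]. It stood at 209.3, 224.7 and 300.7 CPM in elav[null], at 347.0, 354.5 and 299.3 CPM in elav[null] fne[null], at 140.3, 157.5 and 135.3 CPM in elav[WDd], and at 115.5, 109.5 and 167.7 CPM in WT. No library without elav overlapped with a library of elav[WDd] or WT. The log2 fold changes over WT were 0.90 ± 0.20 and 1.35 ± 0.20 (edgeR adjusted p = 0.00571 and 0.000277). The call in elav[null] held in 17 of 20 alternatives and was lost in the fit of only the 6 libraries compared, at a fold of at least 2 and with the 3 libraries of fewest detected genes left out (edgeR adjusted p of up to 0.0645). With 1 of 12 higher in each, 8.33%, the list was near the share of all genes. spok, which acts in ecdysone synthesis, was called lower in elav[null] (−2.62 ± 0.85, edgeR adjusted p = 0.0493). That call held in 5 of 20 alternatives only, and the log2 fold changes ran from −3.94 without elav[null] replicate 2 to −1.45 with the 3 libraries of fewest detected genes left out. edgeR called 0 of the 12 in elav[WDd], where 1 had an unadjusted p under 0.05 and DESeq2 called 0. The medians were −0.337 in elav[null], 0.494 in elav[null] fne[null] and 0.118 in elav[WDd]. The summed level of 4 ring gland markers, the gland that makes ecdysone, was 10.2 to 14.7 CPM in elav[null], 13.2 to 14.7 in elav[null] fne[null], 16.2 to 18.7 in elav[WDd] and 15.6 to 18.4 in WT. edgeR called 0 of the 4 over WT in each mutant.

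The remaining lists bear on stage and tissue. Of 14 early patterning genes, which act in young embryos, 1 was higher in elav[null] and 2 in elav[null] fne[null], and 0 in elav[WDd], where 0 had an unadjusted p under 0.05 and DESeq2 called 0. These are 7.14% and 14.3% of the list, beside 5.99% and 6.68% of all genes called higher in the null groups. sna, a mesoderm and neuroblast factor gene, was higher in elav[null] fne[null] by 1.75 ± 0.27 (edgeR adjusted p = 0.000423). hry, a pair-rule gene, was higher in both (0.68 ± 0.21 and 0.79 ± 0.21, edgeR adjusted p = 0.0403 and 0.017). The call of hry held in 11 of 20 alternatives in elav[null] (0.40 to 0.82, edgeR adjusted p of up to 0.394). It was lost there, among other settings, in the fit of only the 6 libraries compared, at a fold of at least 2, with the 3 libraries of fewest detected genes left out and without WT replicate 1, WT replicate 2, elav[null] replicate 1, the library labelled elav[null] replicate 3 or elav[WDd] replicate 3. The same call in elav[null] fne[null] held in 17 of 20 and was lost at a fold of at least 2 and without WT replicate 1 or elav[null] fne[null] replicate 1 (0.68 and 0.58). The medians were −0.093 in elav[null], 0.294 in elav[null] fne[null] and 0.228 in elav[WDd].

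Of 7 cuticle tanning genes, which act late in embryogenesis, 4 fell and 2 were higher in elav[null] and in elav[null] fne[null], and 1 fell in elav[WDd]. Each null group thus had 57.1% of the list called lower, beside 11.7% and 14.7% of all genes, and 28.6% called higher, beside 5.99% and 6.68%. Ddc, encoding dopa decarboxylase, fell (−2.16 ± 0.33 in elav[null] and −2.39 ± 0.33 in elav[null] fne[null], edgeR adjusted p = 0.000483 and 0.000193). e, which encodes the enzyme that joins beta-alanine to dopamine, fell as well (−1.52 ± 0.27 and −1.26 ± 0.27, edgeR adjusted p = 0.00147 and 0.00379). y, a pigmentation gene, fell in all 3 mutants (−1.62 ± 0.20, −1.53 ± 0.20 and, in elav[WDd], −1.13 ± 0.20, edgeR adjusted p = 0.00011, 0.000124 and 0.0366). WT alone carried FM7, and the part of that chromosome in the level of y was not tested. The elav[WDd] call of y held in 8 of 20 alternatives and was lost, among other settings, in the fit of only the 6 libraries compared and without any single WT, elav[WDd] or elav[null] fne[null] library or elav[null] replicate 2. t, which returns conjugated dopamine, was higher by 1.82 ± 0.23 and 1.42 ± 0.23 (edgeR adjusted p = 0.000132 and 0.000581). The other higher gene, speck, was called in elav[null] in 11 of 20 alternatives (0.49 ± 0.15, edgeR adjusted p = 0.0352) and was lost in the fit of only the 6 libraries compared, at a fold of at least 2, with the 3 libraries of fewest detected genes left out and without WT replicate 1, WT replicate 2, the library labelled elav[null] replicate 3, elav[null] fne[null] replicate 1, elav[WDd] replicate 1 or elav[WDd] replicate 3. It was higher in elav[null] fne[null] by 0.78 ± 0.15 (edgeR adjusted p = 0.00173). The medians were −1.491 in elav[null], −1.265 in elav[null] fne[null] and 0 in elav[WDd].

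Of 12 larval gut genes, 8 were higher in elav[null] and 7 in elav[null] fne[null], and edgeR called 0 in elav[WDd], where 4 were lower at an unadjusted p under 0.05 and DESeq2 called 2 lower. The shares called higher were 66.7% and 58.3%, beside 5.99% and 6.68% of all genes. Amy-p and Amy-d, near copies that encode amylases and may share reads, were higher by 2.80 ± 0.16 and 3.04 ± 0.26 in elav[null] and by 3.01 ± 0.16 and 3.31 ± 0.26 in elav[null] fne[null] (edgeR adjusted p = 7.69e-07, 7.15e-06, 5.01e-07 and 3.36e-06). Jon25Biii and Jon25Bi, which belong to a family of serine proteases, were higher by 1.78 ± 0.19 and 1.01 ± 0.18 in elav[null] and by 1.75 ± 0.19 and 0.94 ± 0.18 in elav[null] fne[null] (edgeR adjusted p = 3.52e-05, 0.00139, 2.9e-05 and 0.00184). Over the alternatives, the count called higher ran from 4 to 9 in elav[null] and from 3 to 9 in elav[null] fne[null]. The elav[null] count was 5 without elav[null] replicate 2. Of the 8 genes called in elav[null], Jon99Cii held in 6 of 20 alternatives only. The medians were 0.681 in elav[null], 0.799 in elav[null] fne[null] and −0.379 in elav[WDd].

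**Figure D4:**
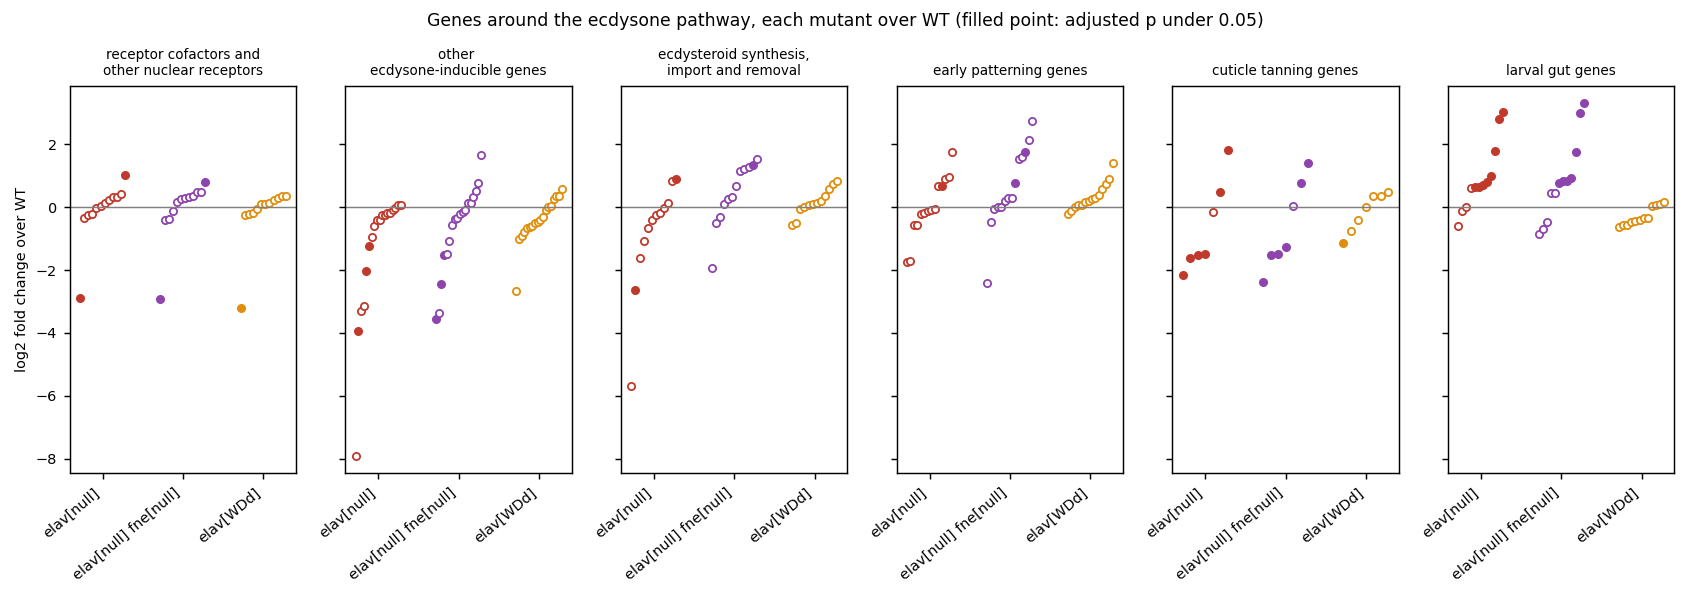
Log2 fold change over WT of every tested gene of the 6 lists, sorted within each mutant, with filled points for an adjusted p under 0.05 in edgeR. The single filled point at the bottom of the cofactor list is Hr38 in all 3 mutants, and the lowest open points belong to genes with few or 0 counts, whose fitted values depend on how 0 counts are treated.

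Some tissue markers differed between the same groups. Of all genes, 5.99% were called higher and 11.7% lower in elav[null] over WT. In elav[null] fne[null] over WT these shares were 6.68% and 14.7%. The summed level of 5 body wall muscle markers was 1613 to 13359 CPM in elav[null], 1485 to 3473 in elav[null] fne[null], 33791 to 36896 in elav[WDd] and 30560 to 34602 in WT, with all 5 detected in every library. In edgeR, 4 of the 5 were lower in elav[null] and 5 in elav[null] fne[null]. The 4 midgut markers, of which Amy-p and Jon25Biii are also in the gut list, summed to 3836 to 4377 CPM in elav[null], 3513 to 4168 in elav[null] fne[null], 1323 to 1722 in elav[WDd] and 1146 to 1528 in WT, and 3 of the 4 were called higher in each null group. The 3 epidermis markers summed to 75.2 to 117 CPM in elav[null], 141.1 to 142.7 in elav[null] fne[null], 571.5 to 806.8 in elav[WDd] and 357.5 to 1113 in WT. Nearly all of the difference in that sum was TwdlM, a cuticle protein gene, at 1.61 ± 1.75 CPM in elav[null], 1.88 ± 0.801 in elav[null] fne[null], 536.2 ± 118 in elav[WDd] and 621.1 ± 399 in WT. grh, the epidermal transcription factor gene, was called lower in elav[null] (−0.67 ± 0.20, edgeR adjusted p = 0.0331) and not in elav[null] fne[null] (0.09 ± 0.20, 0.835), and Cpr49Ae in elav[null] fne[null] (−2.49 ± 0.56, 0.00581) and not in elav[null] (−0.21 ± 0.53, 0.844). Markers of adult ovary and yolk, 15 in all, summed to 89.6, 686.6 and 15.9 CPM in elav[null] replicates 1 to 3 and to 1.64 to 9.24 CPM in the other 9 libraries, and 8 of the 14 tested were called higher in elav[null] over WT. Over WT, edgeR called 1 of 5 neuron markers lower in elav[null] fne[null], 2 and 1 of 4 glia markers higher in elav[null] and elav[null] fne[null], 2 of 4 trachea markers lower in elav[null], 1 of 4 haemocyte markers higher in each of those groups, and 1 and 2 of 3 tested fat body markers lower. A single call in so short a list is not read as a difference in the tissue. The part of these tissues in the levels of Eip74EF, Hr3, EcR and Hr4 was not tested. Eip74EF was called lower in elav[null] also without elav[null] replicate 2. The elav[null] libraries left in that fit, at 89.6 and 15.9 CPM of ovary and yolk markers, were still above the other 9 libraries. The part of this RNA in the level of Eip74EF was not tested.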

How the data were processed

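Poly(A) RNA of 12 embryo libraries was measured as read counts per gene. The authors deposited 1 table of raw counts for 17561 genes. The tools, per the submitters' processing notes, included featureCounts 2.0.8, STAR 2.7.11a, Trim Galore 0.6.7 and DESeq2 1.40.2 with build dm6, whose roles are not given. The strand setting is not given in the sources used here. The paired reads were 150 bp long, per the labels. No batch is given. All gene numbers matched RefSeq, which gave symbols and positions. Merged exon lengths came from Ensembl release 115.

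Groups were taken from the sample titles. Counts were scaled with TMM factors, and 14031 genes passing filterByExpr were tested in 1 edgeR 4.0.16 quasi-likelihood fit (R 4.3.3) over all 12 libraries, with group as the only term, two-sided, with Benjamini-Hochberg adjustment over all genes and a threshold of 0.05. The 4 groups thus share 1 estimate of the spread, and a library of another group can move a call. CPM are counts over TMM-scaled library sizes. SE are those implied by the F statistic. The test was also run on simulated counts. These did not model the scarcity of low counts in 3 of the libraries, so they do not cover Hr3 or other genes of low level. The limit for 0 counts is 3 counts.

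The 10 genes, the lists and the markers were chosen with earlier results of these data known. All 10 genes are named. For the 3 with the widest group means, the 3 most alike genes of at least 5 mean CPM are named, and up to 4 called genes per list and comparison by adjusted p. The 20 alternatives were DESeq2 1.42.0, RLE factors, testing without a low-count filter, fitting only the 6 libraries compared, a replicate block, robust dispersion, a fold of at least 2, leaving out each library in turn, and leaving out the 3 libraries of fewest detected genes. Those for the lists were added after seeing the data. Splicing and single isoforms, on which ELAV acts, were not analysed here.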

Additional observations from a re-analysis of the deposited data

How the results depend on the processing

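The call of Eip74EF held in all 20 alternatives in elav[null] over WT and in elav[WDd] over either other mutant, and in 17 of 20 in elav[null] fne[null] over WT. The number of the 10 genes called moved elsewhere, the cause not being tested. In elav[null] over WT DESeq2 called 2 lower. In elav[null] fne[null] over WT 1 was called higher under RLE factors, the replicate block or robust dispersion, and 2 in DESeq2, and 2 were called higher and 2 lower both in the fit of only the 6 libraries and with the 3 libraries of fewest detected genes left out (here "without the 3 libraries"). In elav[null] fne[null] over elav[null] 1 was called lower without the 3 libraries. For elav[WDd] over elav[null] 1 was called higher under RLE factors, no filter, the 6 libraries, a fold of at least 2 or without the 3 libraries. For elav[WDd] over elav[null] fne[null] 3 were called higher and 2 lower with the 6 libraries, 2 higher and 1 lower without the 3 libraries, and 1 lower under RLE factors or in DESeq2.

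The fold changes that changed sign were those of uncalled genes. RLE factors and DESeq2 gave 0.01 for Hr39 in elav[null] fne[null] over WT, −0.00 for usp in elav[WDd] over WT and 0.02 for ImpE1 in elav[null] fne[null] over elav[null], where the 6 libraries also gave 0.02. usp in elav[WDd] over WT was −0.01 with the replicate block or the 6 libraries. Without the 3 libraries, elav[null] over WT gave −0.10 for EcR, 0.32 for br and −0.42 for ImpE1, elav[null] fne[null] over WT −0.21 for ImpE1, and elav[null] fne[null] over elav[null] −0.14 for usp and 0.22 for ImpE1. Under RLE factors and DESeq2 the median of all genes shifted by 0.13 and 0.14 in elav[null] fne[null] over WT and by −0.14 in elav[WDd] over elav[null] fne[null].

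Leaving out each library gave ranges. In elav[null] over WT 1 to 2 genes were called lower, and log2 fold changes ran from −0.35 to 0.46 for EcR, −0.44 to 0.17 for Eip75B, −0.40 to 0.34 for br, −0.34 to 0.70 for Hr4 and −0.13 to 0.28 for ImpE1. In elav[null] fne[null] over WT 0 to 2 were called higher and 0 to 2 lower, with −0.48 to 0.13 for Eip75B, −0.62 to 0.12 for br, −0.17 to 0.02 for Hr39 and −0.20 to 0.27 for ImpE1. In elav[WDd] over WT the ranges were −0.24 to 0.07 for EcR, −0.12 to 0.09 for usp, −0.08 to 0.53 for Eip75B, −0.45 to 0.28 for br and −0.32 to 0.23 for ftz-f1. In elav[null] fne[null] over elav[null] 0 to 3 were called higher, with −0.01 to 0.21 for usp, −0.15 to 0.03 for Eip75B, −0.41 to 0.06 for br and −0.26 to 0.18 for ImpE1. In elav[WDd] over elav[null] 1 to 3 were called higher, with −0.60 to 0.21 for EcR, −0.21 to 0.22 for br and −0.25 to 0.79 for Hr4. In elav[WDd] over elav[null] fne[null] 1 to 2 were called higher and 0 to 1 lower. The library that moved most calls was the one labelled elav[null] replicate 3, without which 3 genes were called higher in elav[null] fne[null] over elav[null].

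The replicate numbers did not pair the libraries: deviations of same-numbered libraries correlated at −0.24 to 0.242, and 3 of 12 libraries correlated best with their own number. With the replicate block, Hr4 was called in elav[null] fne[null] over WT (1.20 ± 0.36, edgeR adjusted p = 0.0375), and over all genes 5 were called higher and 11 lower in elav[WDd] over WT, against 9 and 19 without it. That block also ended the calls of Hr38 and y in elav[WDd] over WT and of hry, spok and Jon99Cii in elav[null] over WT. The libraries with 0 counts of Hr3 held 86777299 counts (elav[null] fne[null] replicate 2) and 22491041 counts (the library labelled elav[null] replicate 3), so the total alone does not limit its value, and in both low counts are rare. The list medians were the same with genes at 0 in a group set to the bound that 3 counts over that group give. Only 1 of the other ecdysone-inducible genes and 1 gene of ecdysteroid synthesis were at 0, both in elav[null]. Each stayed below its list median, so the medians could not move.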

Other observations

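Between the mutants, the genes around the pathway gave values not described above. Cyp18a1, which encodes an enzyme that removes active ecdysteroid, was lower in elav[WDd] than in elav[null] fne[null], with a log2 fold change of −0.81 ± 0.19 SE (edgeR adjusted p = 0.00708). Blimp-1, an ecdysone-inducible repressor of ftz-f1, was lower in the same comparison, at −1.79 ± 0.46 (edgeR adjusted p = 0.0134). Oatp74D was lower in elav[WDd] than in elav[null] (−0.76 ± 0.20, edgeR adjusted p = 0.0166) and than in elav[null] fne[null] (−1.21 ± 0.20, 0.00068). Ldh was higher in elav[WDd] than in elav[null] fne[null] by 2.04 ± 0.29 (edgeR adjusted p = 0.000231), and MsrA higher than in elav[null] by 1.70 ± 0.34 (0.00369). Edg78E was higher in elav[WDd] than in these groups by 3.89 ± 0.81 and 4.29 ± 0.83 (edgeR adjusted p = 0.00361 and 0.00279). Of the 18 other ecdysone-inducible genes, 2 were called higher over elav[null], or 11.1%, beside 11% of all genes. Over elav[null] fne[null] 3 were higher and 2 lower, or 16.7% and 11.1%. There 14.3% of all genes were called higher, and 20.9% were called in either direction. Further calls of the lists between the mutants are not given here. The fold changes of list genes between the mutants were not recomputed gene by gene under the alternatives.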
